A study of Homo sapiens with 24 samples.

Results

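The genes described here encode receptor chains and intracellular signal proteins of the interferon and related cytokine pathways. The 10 genes were fixed by name: the type I interferon receptor chains IFNAR1 and IFNAR2, the interferon gamma receptor chains IFNGR1 and IFNGR2, the shared receptor chain IL10RB, the kinases JAK1, JAK2 and TYK2, the transcription factor STAT3 and the feedback inhibitor SOCS3. They were taken from 16742 genes listed in at least 1 of 4 deposited tables of mRNA sequencing. All 10 had a value in each table, with a mean normalized count between 235 and 4662, and all passed the filter of a mean of at least 10.

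Interferons bind receptors made of a pair of different chains, each carrying a JAK family kinase on its inner end. IFNAR1 and IFNAR2 bind type I interferons and carry TYK2 and JAK1, whereas IFNGR1 and IFNGR2 bind interferon gamma and carry JAK1 and JAK2. IL10RB is shared by the receptors of interleukin 10, interleukin 22 and the lambda interferons. The activated kinases phosphorylate STAT proteins, which enter the nucleus and switch on target genes, and SOCS3 is a target that blocks the kinases in return. Genes for 4 of these receptor chains lie side by side on human chromosome 21, the chromosome present in an extra copy in Down syndrome.

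The study asked how gene expression responds to the gain of a whole chromosome, by comparing aneuploid human cell lines with the parental lines from which they came. HCT116 is a colon carcinoma line, near diploid with a modal chromosome number of 45, and RPE1_hTERT is a line of retinal pigment epithelium immortalized with telomerase, near diploid with a modal number of 46. HCT116 5/4 is tetrasomic for chromosome 5 and RPE1 5/3 12/3 is trisomic for chromosomes 5 and 12, and both were compared with the parental line without a fluorescent tag. HCT116* 8/3 c7, clone 7 of a line trisomic for chromosome 8, and RPE1* 21/3, trisomic for chromosome 21, stably express histone H2B tagged with GFP (marked by *), as did the parental lines they were compared with. Each of the 4 comparisons set 3 aneuploid libraries against 3 parental ones, 24 libraries in all, and no library served in more than 1 comparison. Each genotype was represented by a single line, so the gained chromosome and any other change carried by that line cannot be told apart. The labels do not say whether the libraries of a group came from separate cultures, and the p-values then measure only the spread between these libraries.

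The tables hold the authors' comparisons and not the values of single libraries. Each gene is therefore given by the authors' log2 fold change of aneuploid over parental with its standard error (SE), and by the group means that follow from the authors' mean over both groups and the fold change. These group means have no spread of their own. A gene was called at an adjusted p-value under 0.05 in the authors' fit and an absolute log2 fold change above 0.6. Between 13101 and 13887 genes per table had a mean of at least 10, and their median SE was 0.24 in HCT116 5/4, 0.14 in HCT116* 8/3 c7, 0.21 in RPE1 5/3 12/3 and 0.25 in RPE1* 21/3. Markers of origin were mixed. The epithelial genes EPCAM and CDH1 had means of 4192 and 1685 in HCT116 5/4, where they fell by 2.57 and 2.34 against the parental line on the log2 scale, and were not listed in RPE1* 21/3, whereas the keratin genes KRT8 and KRT18 had means of 16721 and 13422 in RPE1* 21/3. OTX2 and MITF, regulators of pigment epithelium, had means of 419 and 1124 in RPE1* 21/3. The visual cycle enzyme RPE65, a defining marker of mature pigment epithelium, had means of 4.58 and 10.4 in the RPE1 tables and 287 and 194 in the HCT116 tables, so that it was higher in the colon carcinoma lines.

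The 4 receptor genes of chromosome 21 form a cluster of 274 kb on GRCh37. IFNAR2 (chr21:34577587-34637980), IL10RB (chr21:34638672-34683725), IFNAR1 (chr21:34696692-34732170) and IFNGR2 (chr21:34775719-34851655) all run on the plus strand in this order. The end of IFNAR2 is 0.691 kb from the start of IL10RB, and the annotation joins them in a readthrough transcript, IFNAR2-IL10RB, which shares 2038 exonic bases with IFNAR2 and 1732 with IL10RB. On the opposite strand, IFNAR2 shares 1803 exonic bases with the noncoding gene IL10RB-DT, IFNAR1 shares 392 with a noncoding gene without a symbol, and IFNGR2 shares 380 with TMEM50B. These overlaps are those of the GENCODE annotation, whereas the authors counted reads on a RefSeq annotation, which may not hold all of these genes. The sources do not say that the counting used strand, so the division of reads between these genes is uncertain. The other 6 genes lie elsewhere: IFNGR1 on chromosome 6 (chr6:137518620-137540586), JAK1 on chromosome 1 (chr1:65298906-65533437), JAK2 on chromosome 9 (chr9:4984390-5129948), TYK2 on chromosome 19 (chr19:10461209-10491284), and STAT3 (chr17:40465342-40540558) and SOCS3 (chr17:76352859-76356158) on chromosome 17. None of the 10 genes lies on a chromosome gained in HCT116 5/4, HCT116* 8/3 c7 or RPE1 5/3 12/3.

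The 120 bases before the most upstream RefSeq start are shown for the receptor genes of the cluster that the RefSeq promoter table holds (build GRCh38.p14, plus strand, 5′ to 3′), since these genes share a position and a copy number. They are IFNAR1 (chr21:33324275-33324394), IFNGR2 (chr21:33403293-33403412) and IL10RB (chr21:33266247-33266366), and IFNAR2 was not matched. Capitals mark each GC box, the letters GGGCGG or CCGCCC, which are the same motif read on either strand.
IFNAR1: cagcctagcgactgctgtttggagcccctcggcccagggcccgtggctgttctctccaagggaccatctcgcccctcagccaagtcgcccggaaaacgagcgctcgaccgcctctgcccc
IFNGR2: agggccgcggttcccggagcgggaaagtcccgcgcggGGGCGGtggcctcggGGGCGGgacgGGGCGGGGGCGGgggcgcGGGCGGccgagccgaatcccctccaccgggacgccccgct
IL10RB: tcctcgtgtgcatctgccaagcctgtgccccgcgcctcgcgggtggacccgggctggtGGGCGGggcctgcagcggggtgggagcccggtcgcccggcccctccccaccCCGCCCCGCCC
The stretch of IFNGR2 holds 5 GC boxes, that of IL10RB holds 3, of which 2 overlap, and that of IFNAR1 holds 0. The promoter of 300 bases at a second IFNAR1 start holds 3. Among all 35116 promoters of this length in the table, 45.0% held at least 1 GC box. The STAT element TTCNNNGAA, searched in the same promoters of 9 of the 10 genes, was found in that of IL10RB only, as TTCCCGGAA with its first base 12 bases into the transcribed part, and in 7.66% of all promoters. The interferon response element GAAANNGAAA was found in none of these promoters and in 3.57% of all, both strands searched.

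In RPE1* 21/3, all 4 receptor genes of chromosome 21 lay above the parental line, and the other 6 genes lay close to it. The mean normalized count of IFNGR2 was 812 in the parental line and 1497 in RPE1* 21/3, a log2 fold change of 0.88 with an SE of 0.24, or 1.84-fold, and it passed the test with an adjusted p of 0.0109 in the authors' DESeq2 fit. In bulk RNA, fewer or more cells that express a gene and less or more RNA per cell cannot be told apart. IFNGR2 supplies the chain of the interferon gamma receptor that brings JAK2 to the complex. For IL10RB the group means were 493 and 834, with a log2 fold change of 0.76 and an SE of 0.25. IFNAR1 had group means of 1536 and 2377 and a log2 fold change of 0.63 with an SE of 0.21. IFNAR2, the chain that binds type I interferon most tightly, had group means of 324 and 489 and a log2 fold change of 0.59 with an SE of 0.20. These last 3 genes had unadjusted p-values of 0.0024 to 0.0028 and adjusted p-values of 0.0652 (IFNAR1), 0.0669 (IFNAR2) and 0.0741 (IL10RB), and so did not pass. The 95% intervals of all 4 log2 fold changes exclude 0 and hold 0.58, the log2 ratio of 3 copies to 2. Thus 1 of the 10 genes was called in this line, as higher, where 3.31% of all 13101 genes tested were called, 1.66% as higher and 1.65% as lower.

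**Figure D1:**
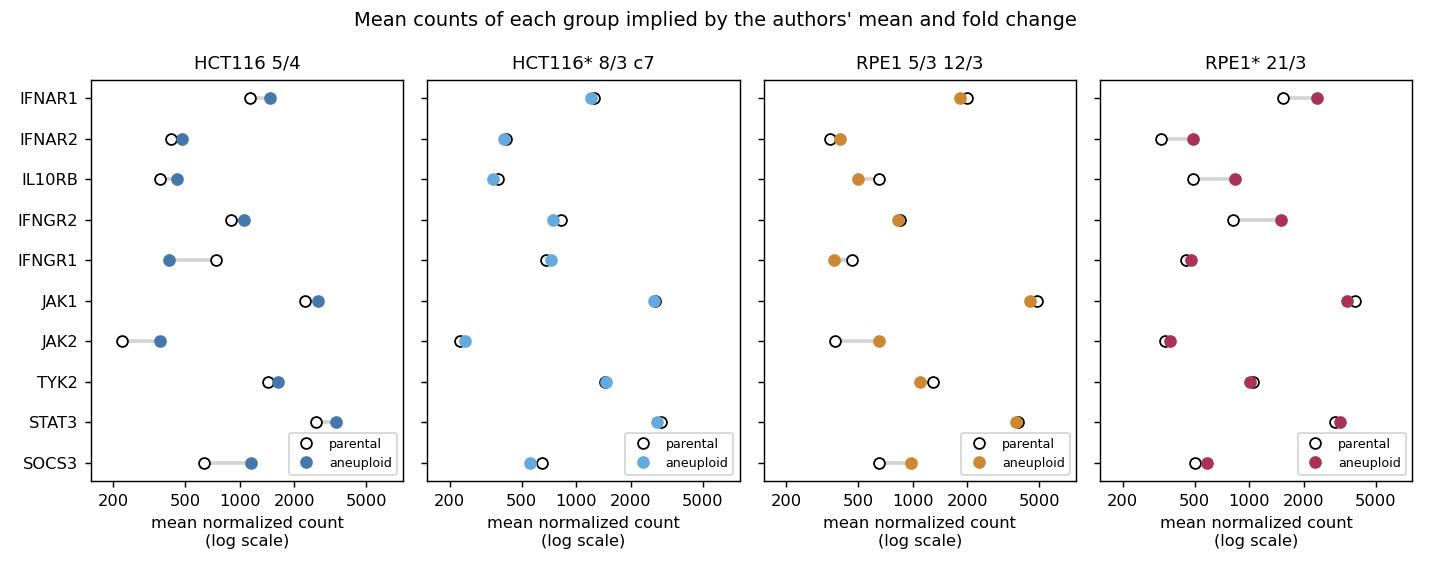
Mean normalized count (x axis, log scale) of the 10 genes (y axis) in the parental line (open circles) and the aneuploid line (filled circles), derived from the authors' mean over both groups and their fold change, 3 libraries per group and no error available. In RPE1* 21/3 the filled circles of IFNAR1, IFNAR2, IL10RB and IFNGR2 lie to the right of the open ones, from 324 to 489 for IFNAR2 up to 1536 to 2377 for IFNAR1.

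The remaining 6 genes of RPE1* 21/3 had log2 fold changes between -0.14 and 0.21, and 0 of them passed even an unadjusted p of 0.05 in the authors' table. IFNGR1, the partner chain of IFNGR2, had group means of 447 and 475 and a log2 fold change of 0.09 with an SE of 0.24. JAK1, the kinase used by both interferon receptors, had group means of 3860 and 3493, and TYK2, the kinase bound to IFNAR1, had 1058 and 1012. JAK2, the partner of IFNGR2, had 345 and 364, with the widest 95% interval of the 10 genes, -0.54 to 0.69. STAT3 had 2983 and 3186, and SOCS3 had 504 and 582. The intervals of JAK2 and SOCS3 also hold 0.58, so that a change of the size of the receptor genes was not excluded for these 2 genes at this precision. The authors' fit appears to shrink fold changes. With this shrinkage undone, IFNGR1 was at 0.093 with an SE of 0.254, and such a change was not excluded for IFNGR1 either. The median log2 fold change was 0.69 for the 4 receptor genes of chromosome 21, 0.08 for the other 6, and 0.003 for all genes tested.

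On chromosome 21 itself the receptor genes were not extreme. Of 127 genes of the chromosome with a mean of at least 10 in RPE1* 21/3, 116 had a log2 fold change above 0, with a median of 0.55, and 33 were called, 32 of them higher. From the highest fold change down, IFNGR2 was at place 25, IL10RB at 36, IFNAR1 at 50 and IFNAR2 at 56. Within 2 Mb on either side of each receptor gene, the median of the neighbouring genes, which include the other receptor genes, was between 0.63 and 0.64. The nearest protein-coding genes tested on the centromeric side of the cluster were C21orf59 at 0.48, the synaptic phosphatase gene SYNJ1 at 0.95, which was called with an adjusted p of 0.000415 in the authors' fit, and GCFC1 at 0.52. On the other side were TMEM50B at 0.44, the chaperone gene DNAJC28 at 1.03 and the purine synthesis gene GART at 0.50. SYNJ1 was the only neighbour of these 6 to pass. It also rose in HCT116 5/4, a line without a gain of chromosome 21, by 0.96 (adjusted p 0.00154 in the authors' fit).

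**Figure D2:**
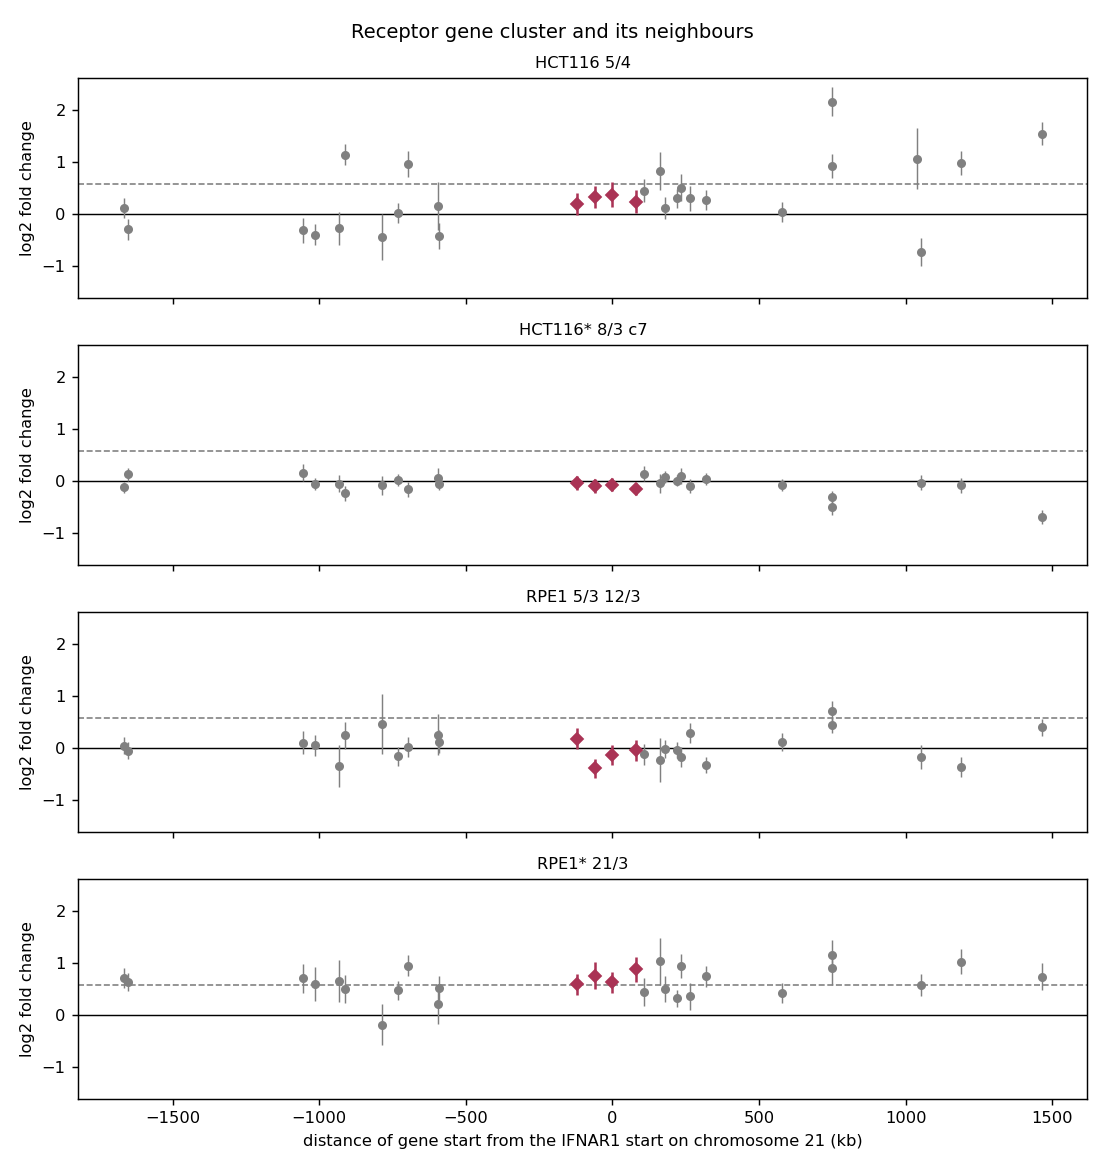
Log2 fold change with its SE (y axis) of chromosome 21 genes by the distance of their start from that of IFNAR1 in kb (x axis), 1 panel per line, with the 4 receptor genes as red diamonds, other genes as grey circles and the dashed line at 0.58. In RPE1* 21/3 the receptor genes lie between 0.59 and 0.88 among neighbours that are mostly above 0, and in HCT116* 8/3 c7 they lie between -0.15 and -0.03.

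In the 3 lines without a gain of chromosome 21, none of the 4 receptor genes was called, where the shares of all genes called were 20.6% (HCT116 5/4), 16.6% (RPE1 5/3 12/3) and 1.8% (HCT116* 8/3 c7). Of the genes of chromosome 21, 15 of 119, 16 of 122 and 2 of 116 were called in the same order of lines. The log2 fold changes of the 4 receptor genes ranged from 0.20 to 0.37 in HCT116 5/4, with a median of 0.28. In HCT116* 8/3 c7 these 4 genes ranged from -0.15 to -0.03, and in RPE1 5/3 12/3 from -0.39 to 0.18. The medians there were -0.080 and -0.082. In HCT116 5/4 the neighbours within 2 Mb, again with the other receptor genes among them, had medians of 0.26 to 0.29. The 119 genes of chromosome 21 tested had a median of 0.06. The lowest value of the 4 receptor genes was -0.39 with an SE of 0.19, for IL10RB in RPE1 5/3 12/3. It had group means of 651 and 498, an unadjusted p of 0.0377 and an adjusted p of 0.144 by the authors' test.

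Whether the change in RPE1* 21/3 differed from that in the other lines was tested for each gene as its log2 fold change in RPE1* 21/3 minus the mean of the 3 other lines, by a two-sided Wald test from the authors' SEs, with Benjamini-Hochberg adjustment over 11939 genes. The difference was called for IFNGR2 only among the 10 genes, at 0.87 (95% interval 0.35 to 1.38) with an adjusted p of 0.0282. Over all genes tested 4.23% were called, 2.21% as higher in RPE1* 21/3, and of 105 chromosome 21 genes 22 were called, all higher. IL10RB had a difference of 0.81 (0.27 to 1.35, adjusted p 0.0671), IFNAR1 0.57 (0.11 to 1.03, adjusted p 0.214) and IFNAR2 0.48 (0.04 to 0.91, adjusted p 0.358), all with intervals above 0 and none past the threshold. For the 6 genes off chromosome 21 every interval held 0, from JAK2 at -0.46 (-1.13 to 0.20) to IFNGR1 at 0.46 (-0.07 to 0.99).

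**Figure D3:**
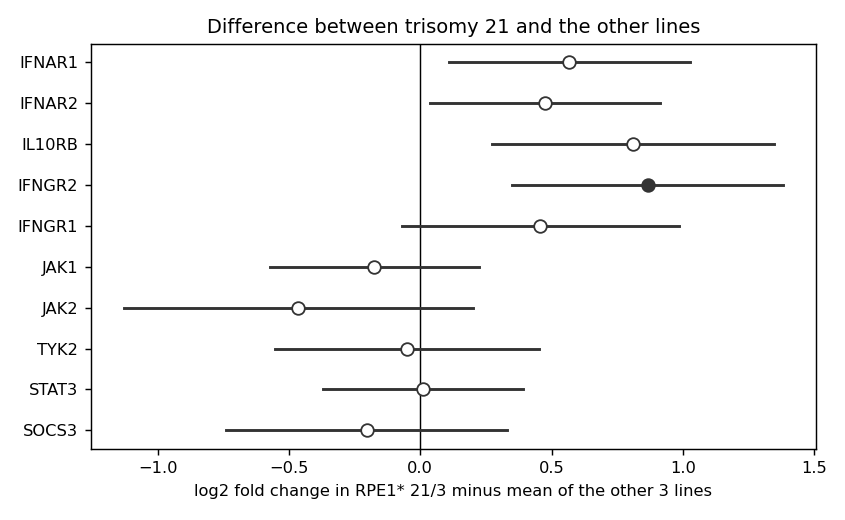
Log2 fold change in RPE1* 21/3 minus the mean of the other 3 lines (x axis) for each of the 10 genes (y axis), with bars for the 95% interval and a filled circle for the gene that passed the test. IFNGR2 at 0.87 is filled, and the intervals of IL10RB, IFNAR1 and IFNAR2 also lie above 0.

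Set against single lines, the difference for IFNGR2 was 1.03 from HCT116* 8/3 c7 (SE 0.27, adjusted p 0.00834 by the same Wald test) and 0.92 from RPE1 5/3 12/3 (SE 0.31, adjusted p 0.0356), and it was 0.64 from HCT116 5/4 (SE 0.32, adjusted p 0.244). IL10RB differed from RPE1 5/3 12/3 by 1.14 (SE 0.31, adjusted p 0.00537), the comparison within RPE1, and did not pass against either HCT116 line. IFNGR1 differed from HCT116 5/4 by 0.96 (SE 0.34, adjusted p 0.0445). The shares of all genes called were 10.5% against HCT116 5/4, 2.57% against HCT116* 8/3 c7 and 9.32% against RPE1 5/3 12/3.

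In HCT116 5/4 the inhibitor SOCS3 rose and the receptor chain IFNGR1 fell. SOCS3 had group means of 635 in the parental line and 1158 in HCT116 5/4, a log2 fold change of 0.87 with an SE of 0.26. It passed the authors' test (adjusted p 0.00525). The 40 genes within 2 Mb of SOCS3 had a median of -0.58, on the opposite side of 0. IFNGR1 had group means of 738 and 404 and a log2 fold change of -0.87 with an SE of 0.24 and an adjusted p of 0.00196, while its neighbours had a median of -0.03. JAK2 had group means of 222 and 364 and a log2 fold change of 0.71 with an SE of 0.30, which did not pass (adjusted p 0.0787). The remaining genes, JAK1, TYK2, STAT3 and the 4 receptor genes of chromosome 21, lay between 0.18 and 0.37 without passing. The 2 genes called of 10 compare with 20.6% of all genes called in this line, 10.8% as higher and 9.83% as lower.

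In RPE1 5/3 12/3 the kinase JAK2 rose, with group means of 371 and 653, a log2 fold change of 0.82 with an SE of 0.19 (authors' adjusted p 0.00036). Genes within 2 Mb of JAK2 had a median of -0.05. SOCS3 had group means of 652 and 978 and a log2 fold change of 0.58 with an SE of 0.19. Its adjusted p of 0.0156 passed and its fold change lay just under the threshold of 0.6. IFNGR1 was at -0.33, TYK2 at -0.24, JAK1 at -0.14 and STAT3 at -0.03, and none of them passed. Here 1 gene of 10 was called where 16.6% of all genes were called, 8.13% as higher and 8.47% as lower.

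In HCT116* 8/3 c7 the 10 genes lay between -0.21 for SOCS3, with group means of 644 and 556, and 0.10 for JAK2, with 227 and 243. None was called in the authors' DESeq2 fit, none had an unadjusted p under 0.05, and no interval reached 0.58. However, the 462 genes tested on the gained chromosome 8 themselves had a median log2 fold change of only 0.22 in this line. Genes on the gained chromosomes had medians of 0.79 in HCT116 5/4, 0.49 in RPE1 5/3 12/3 and 0.55 in RPE1* 21/3. With the shrinkage of the authors' fit undone, the median on chromosome 8 was 0.26, and why it was low was not tested. None of the 10 genes lies on chromosome 8. An interval short of 0.58 in HCT116* 8/3 c7 was not read here as excluding a change by the ratio of 3 copies to 2. Of all genes in this line 1.8% were called, 0.945% as higher and 0.858% as lower.

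**Figure D4:**
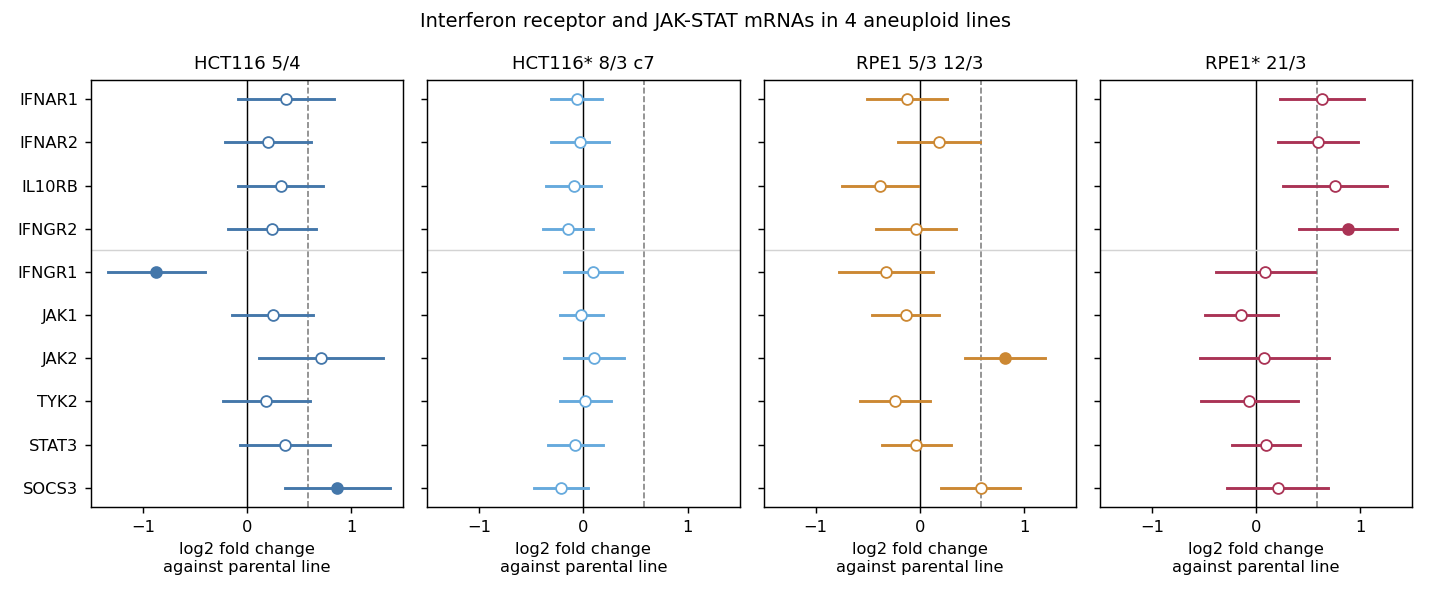
Log2 fold change of aneuploid over parental line (x axis) with its 95% interval for the 10 genes (y axis) in the 4 lines, the chromosome 21 receptor genes above the grey line, filled circles for called genes and the dashed line at 0.58. IFNGR2 is filled in RPE1* 21/3, IFNGR1 and SOCS3 in HCT116 5/4 and JAK2 in RPE1 5/3 12/3.

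Across the 4 lines the kinases did not move together. JAK1 was between -0.14 and 0.25 and TYK2 between -0.24 and 0.18, whereas JAK2 was at 0.71 and 0.82 in HCT116 5/4 and RPE1 5/3 12/3 and at 0.10 and 0.08 in the 2 other lines. Per kb of the canonical transcript, the mean count in the parental line of RPE1* 21/3 was highest for JAK1 (758), followed by STAT3 (606) and IFNGR2 (478). The order of these 3 in RPE1* 21/3 was IFNGR2 (881), JAK1 (686) and STAT3 (648). In both groups IL10RB, IFNAR1, TYK2, IFNGR1 and SOCS3 followed, between 184 and 254 in the parental line and between 213 and 429 in RPE1* 21/3. IFNAR2 (79.6 and 120.05) and JAK2 (49.1 and 51.9) were lowest, and JAK2 was also the lowest of the 10 in both groups of each other table. Spread over libraries was not available for these levels, so the order of close neighbours was not tested.

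The genes whose pattern of 4 log2 fold changes was most like that of each receptor gene of the cluster, by Euclidean distance among 11939 genes, were in part on the same chromosome. For IFNGR2 they were PTTG1IP of chromosome 21 (distance 0.118), PHF7 (0.151) and FAM102B (0.162). For IL10RB they were C21orf2 (0.105) and ITSN1 (0.167), both of chromosome 21, and PGAM2 (0.115). IFNAR2 was nearest to LACE1 (0.148), USP25 of chromosome 21 (0.164) and GPX1 (0.189), and IFNAR1 to CEP85 (0.143), ANLN (0.179) and ZC2HC1C (0.183). These distances are of the size of the SEs of the fold changes and are given as a description.

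Other genes of the pathway were taken from a list of 58 further ligands, receptors, STATs and inhibitors. In RPE1* 21/3, 35 of them were tested and 0 were called by the authors' DESeq2 values, where 3.31% of all genes were called. Their median log2 fold change was 0.02, and 4 had an unadjusted p under 0.05. In HCT116 5/4, 9 of 40 rose and 3 fell, where 10.8% of all genes were called higher and 9.83% lower, with a median of 0.15. The oncostatin M receptor gene OSMR, on the gained chromosome 5, rose by 2.03, the interferon transducer IRF9 by 1.70, and the cytokine LIF by 1.57, while STAT6, which transmits interleukin 4, was at -1.55. In RPE1 5/3 12/3, 10 of 36 rose and 0 fell, where 8.13% of all genes were called higher, with a median of 0.33. They included the inhibitors SOCS2 (3.57) and SH2B3 (1.78) on chromosome 12, the receptor genes IL6ST (1.43) and LIFR (1.36) on chromosome 5, and the type I interferon gene IFNA1 (1.27), which has near-identical relatives and a mean of only 21.5. Of these 10 genes 5 lie off the gained chromosomes, where 28 were tested. Among all 11422 genes tested off the gained chromosomes in this line, 624 were called higher. In HCT116* 8/3 c7, 1 of 39 was called, the interleukin 6 receptor gene IL6R at 0.70, where 1.8% of all genes were called, with a median of -0.02.

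**Figure D5:**
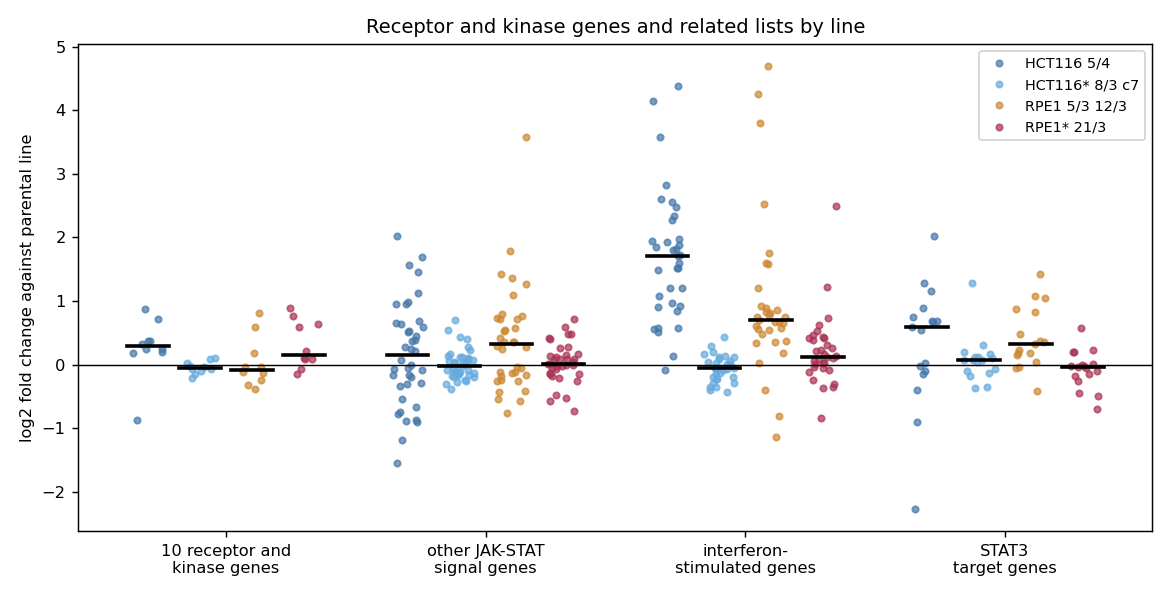
Log2 fold change of aneuploid over parental line (y axis) for the 10 genes and 3 related lists (x axis), 1 point per gene with a mean of at least 10, coloured by line, with black bars for medians. Interferon-stimulated genes have medians of 1.71 in HCT116 5/4 and 0.71 in RPE1 5/3 12/3, against 0.13 in RPE1* 21/3 and -0.06 in HCT116* 8/3 c7.

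The genes that lie downstream of these receptors were counted beside them. Of the interferon-stimulated genes, 29 of 35 rose in HCT116 5/4, where 10.8% of all genes were called higher, and 17 of 33 in RPE1 5/3 12/3, where 8.13% were. Off the gained chromosomes these counts were 28 of 34 and 13 of 29, where 1107 of all 12684 genes and 624 of all 11422 were called higher. The largest rises were 4.38 for XAF1 and 4.15 for OAS1 in HCT116 5/4, and 4.70 for OAS2, on the gained chromosome 12, and 4.25 for SAMD9 in RPE1 5/3 12/3, where 1 gene fell, GBP1, named after its values were seen. In RPE1* 21/3, where 1.66% of all genes were called higher, 2 of 32 rose, the antiviral GTPase gene MX1 by 2.50 (SE 0.41), itself on chromosome 21, and SAMD9 by 1.22 (SE 0.28), and the list had a median of 0.13. MX2, also on chromosome 21 and chosen after its values were seen, was at 1.91 with a mean of 4.19, under the filter. In HCT116* 8/3 c7, 0 of 31 were called, with 4 at an unadjusted p under 0.05 in the authors' DESeq2 table, where 1.8% of all genes were called. Of 17 STAT3 target genes, 7 rose and 2 fell in HCT116 5/4, against 20.6% of all genes called in either direction, where the acute phase gene SERPINA3 was at 2.02 and MYC at -2.28. In RPE1 5/3 12/3, against 16.6% of all genes called, 4 rose, with IL6ST, which is also in the list of pathway genes, at 1.43 and CEBPB at 1.08, and in HCT116* 8/3 c7, 1 rose, CEBPD, on the gained chromosome, at 1.29. None of the 17 was called in RPE1* 21/3, where 3.31% of all genes were, with 2 at an unadjusted p under 0.05 by the same DESeq2 values.

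Some markers of cell identity were called in the lines where SOCS3, IFNGR1 and JAK2 were called. In HCT116 5/4, 5 of 7 colon epithelium markers tested were called, 2 higher and 3 lower. So were 3 of 4 pigment epithelium markers, 1 higher and 2 lower, and 4 of 4 mesenchymal markers, 2 higher and 2 lower. The share over all genes in this line was 20.6%, with 10.8% called higher and 9.83% lower. In RPE1 5/3 12/3, 4 of 7 pigment epithelium markers were called, 1 higher and 3 lower, and 1 of 5 mesenchymal markers, lower. Here the share over all genes was 16.6%, with 8.13% called higher and 8.47% lower. In RPE1* 21/3, 0 of 5 pigment epithelium markers and 0 of 5 mesenchymal markers were called by the authors' values, where 3.31% of all genes were. Of these markers, 0 and 2 had an unadjusted p under 0.05 in the DESeq2 table. In HCT116* 8/3 c7, 0 of 7 colon, 0 of 4 pigment epithelium and 0 of 4 mesenchymal markers were called, where 1.8% of all genes were. Of leukocyte markers, 1 of 2 tested was called higher in HCT116 5/4, 2 of 3 were called higher in RPE1 5/3 12/3 and 0 of 3 in RPE1* 21/3. The shares of all genes called higher were 10.8%, 8.13% and 1.66% in the same order. CD14 on the gained chromosome 5 was among those called in HCT116 5/4 and RPE1 5/3 12/3. Off the gained chromosomes 0 of 1 and 1 of 1 were called, where 1107 of all 12684 genes and 624 of all 11422 were called higher. Summed means of the leukocyte markers over both groups were 75.8 in HCT116 5/4, 1705 in RPE1 5/3 12/3 and 1207 in RPE1* 21/3. Most of the last 2 sums came from CD68 alone, with means of 1485 and 1119. The common leukocyte marker PTPRC had a mean of 10.9 in RPE1* 21/3 and no value in HCT116 5/4. The summed means were 115984 for the colon markers in HCT116 5/4, 2286 for the pigment epithelium markers in RPE1 5/3 12/3 and 1615 for the latter in RPE1* 21/3. KRT8 and KRT18 had means of 63210 and 28098 within the colon sum, and 16721 and 13422 in RPE1* 21/3. Of the defining markers, VIL1 was not listed in HCT116 5/4, nor were TYR and TTR in the RPE1 tables. The part of these shifts in the values of the 10 genes was not tested.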

How the data were processed

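Total RNA of 24 libraries (8 groups of 3) was sequenced by the authors. Per the labels and the methods, the authors removed adapters with cutadapt, mapped to hg19 with TopHat2 2.0.10, counted reads on exons with featureCounts 1.4.3 and tested aneuploid against parental libraries, table by table, with DESeq2, whose version is not given in the sources used here. The deposited mean signal of a gene is the authors' mean of normalized counts over both groups. The deposited log2 fold changes and SEs are those of the authors' DESeq2 fit. The deposited score is the authors' Wald statistic, and the deposited p-values are two-sided and adjusted by the Benjamini-Hochberg method. The tables hold no single libraries and were normalized separately, so these values were used as deposited in place of a count model, depth per library is unknown, and precision is given by the SEs. Since SEs have a ceiling in 2 tables, the authors' fit appears to have placed a prior on the fold changes, which shrinks them.

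Group means were computed as the mean that the fold change implies. Differences between lines were tested with a two-sided Wald test (Python 3.11.15, scipy 1.17.1), tested on simulated data. Genes were placed by symbol in GENCODE on GRCh37, 94.7% to 95.2% of each table, and levels per kb use the canonical transcript. Genes named are all 10 members, every called list gene in RPE1* 21/3, at most the 5 largest called changes per list in each other line, 3 neighbours on each side of the cluster, and the 3 nearest patterns. Not every gene that meets this rule is reported here. The members and lists were chosen with earlier results of these data known. Alternatives were other filters, thresholds, scaling, the prior undone and single reference lines.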

Additional observations from a re-analysis of the deposited data

Results flagged for a closer look

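Changes that differed between RPE1* 21/3 and other lines by a test of the difference itself were those of 3 of the 10 genes. Each gene was tested against the mean of the other 3 lines and against each single line. Of all genes, 4.23% were called against this mean. The shares were 10.5% against HCT116 5/4, 2.57% against HCT116* 8/3 c7 and 9.32% against RPE1 5/3 12/3. Against HCT116 5/4, IFNGR1 alone of the 10 genes was called. Whether the 10 genes exceeded these shares was not tested. For IFNGR2 the log2 fold change in RPE1* 21/3 exceeded the mean of the other 3 lines by 0.87 (Wald test, adjusted p 0.0282), that in HCT116* 8/3 c7 by 1.03 and that in RPE1 5/3 12/3 by 0.92. For IL10RB it exceeded that in RPE1 5/3 12/3 by 1.14, and for IFNGR1 it exceeded that in HCT116 5/4 by 0.96, where IFNGR1 itself fell by 0.87. Line of origin and the H2B-GFP tag differ in several of these pairs, and their part was not tested.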

How the results depend on the processing

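No paired analysis was possible because the tables hold comparisons of groups and no single libraries, and for the same reason no replicate could be left out. With a log2 fold change above 1 required, 0 of the 10 genes were called in HCT116 5/4, in RPE1* 21/3 or in RPE1 5/3 12/3, and the other pathway genes called went to 7 in HCT116 5/4, 0 in HCT116* 8/3 c7 and 6 in RPE1 5/3 12/3. The shares of all genes called at a log2 fold change above 1 or a mean of at least 100 were not counted, here or below. With no threshold on the fold change, SOCS3 joined JAK2 in RPE1 5/3 12/3, giving 2 calls, and 3 other pathway genes were called in HCT116* 8/3 c7. At that setting 2697 of all 13278 genes were called in RPE1 5/3 12/3 and 468 of all 13869 in HCT116* 8/3 c7. With centring on the median of the genes that lie off the gained chromosomes, SOCS3 was at 0.61 in RPE1 5/3 12/3 and the count there was also 2. With the prior undone, 2 other pathway genes were called in HCT116* 8/3 c7. The other counts of the 10 genes and of the other pathway genes stayed within 1.5 times. The difference test called 2 of the 10 genes against RPE1 5/3 12/3 only, and its adjusted p for IFNGR2 rose to 0.244 against HCT116 5/4 only. Differences that reversed were all far from the threshold: STAT3 at -0.0049 with centring and -0.27 against HCT116 5/4, TYK2 at 0.18 against RPE1 5/3 12/3, IFNGR1 at -0.0015 and SOCS3 at 0.42 against HCT116* 8/3 c7, and SOCS3 at 0.043 with inverse-variance weights. The median of the 4 receptor genes in RPE1* 21/3 was 0.73 with the prior undone. Of 200 values of single genes in single lines under 5 settings, 194 kept direction and side of the threshold. Settings that changed only the threshold or the adjustment left the fold change as it was, so direction could not change there. For the interferon-stimulated and STAT3 target lists, settings chosen after the data were seen moved 4 counts by more. With a log2 fold change above 1 required, interferon-stimulated calls went from 18 to 9 in RPE1 5/3 12/3 and STAT3 target calls from 9 to 4 in HCT116 5/4. Interferon-stimulated calls went from 2 to 1 in RPE1* 21/3 with a mean of at least 100, and from 0 to 1 in HCT116* 8/3 c7 with no threshold on the fold change.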
